A study of Mus musculus with 8 samples.

Results

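The genes described here are 7 chemokines of the intestinal epithelium (Cxcl1, Cxcl5, Cxcl10, Cxcl16, Ccl20, Ccl25 and Cx3cl1) and 3 feedback genes that NF-kB induces (Nfkbia, Tnfaip3 and Birc3). They were chosen by symbol, and all 10 were found among the 13420 genes of the deposited read count table. Of these 10, the 4 genes Cxcl16, Cx3cl1, Ccl25 and Nfkbia were among the 5264 genes with enough reads for a test. Levels of the other 6 genes rest on few reads and are given as reads and as floors.

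Chemokines are small secreted proteins that draw immune cells along a gradient, and epithelial cells release them when the barrier is damaged. Many chemokine genes are switched on by NF-kB, a transcription factor that is held in the cytoplasm by IkB proteins until IkB kinase marks these for degradation. NF-kB also induces its own inhibitors, so that a pulse of activity is normally followed by a rise in transcripts such as Nfkbia and Tnfaip3.

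The study asked how wild-type (WT) and cancer cells of the mouse small intestine influence each other when they grow within the same organoids. WT organoids carried the mTmG reporter on C57BL/6, and cancer organoids carried Villin-CreERT2Apcfl/flKrasG12D/WTTr53fl/R172H on C57BL/6 (F6) together with the fluorescent protein Dendra2. Each cell type was cultured alone (pure) or combined at 2 parts WT to 1 part cancer (mixed), and 3 days after mixing live cells were sorted on mTomato for WT cells and on Dendra2 for cancer cells. Bulk CEL-Seq libraries, which count reads at the 3′ end of transcripts, were made, 2 per group. Pure WT cells gave libraries A01 and A05 and mixed WT cells A02 and A06, while pure cancer cells gave A03 and A07 and mixed cancer cells A04 and A08. The villin promoter drives the Cre in epithelium, and all cells came from organoid lines in culture without stroma. The labels do not give the number of lines or say whether the libraries of a group came from separate cultures. Therefore, p-values measure the spread between libraries, which may be technical.

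Depth differed widely, from 73109 reads in A02 to 4733121 in A04. After normalization 1 read was worth 13.1 CPM (counts per 1000000) in A02 and 0.196 CPM in A04, so a gene without reads in A02 can still have a level of up to 39.3 CPM, the worth of 3 reads. All 9 epithelial markers were tested, and their summed level was 6148 to 16249 CPM in WT and 4766 to 6504 CPM in cancer libraries. Krt8, Cldn7, Cdx1 and Cdx2 were called lower in cancer cells across the 8 libraries, beside 14.2% of all tested genes called in either direction. The log2 fold change was -8.98 for Cdx1 (edgeR adjusted p = 2.29e-07) and -3.04 for Cdx2 (adjusted p = 0.00184). Among cancer libraries only A04 had Cdx1 reads (0.783 CPM), a loss that the summed level does not show. The Krt8 call was lost without A06 and, narrowly, with estimated transcripts (log2 fold change -1.32, edgeR adjusted p = 0.05004). It was also lost with molecule barcodes (log2 fold change -0.18, edgeR adjusted p = 0.944), which cannot decide it. Barcode counts have an upper limit, and Krt8 had 3237 reads in A01, 4612 in A05, 3751 in A06 and 10287 in A04. The Cldn7 call was lost with molecule barcodes (edgeR adjusted p = 0.220) and without A01, A06 or A08. That limit applies to Cldn7 as well, which had 1582 reads in A04. Wnt targets went both ways between pure cancer and pure WT cells. Nkd1 (log2 fold change 4.40, SE 0.702, edgeR adjusted p = 0.000143) and Notum (6.38, adjusted p = 0.000258) were higher in pure cancer cells. Ascl2 was called lower (edgeR adjusted p = 0.0437), a call lost with DESeq2 (adjusted p = 0.0614) and with a minimum count of 50. Axin2 (log2 fold change -0.91, edgeR adjusted p = 0.468) and Lgr5 (-1.32, adjusted p = 0.481) were not called. Between mixed cancer and mixed WT cells Axin2 (log2 fold change 3.57, edgeR adjusted p = 0.00580), Nkd1 (6.49, adjusted p = 0.000340) and Notum (4.44, adjusted p = 0.0184) were called higher. Of all tested genes 6.42% were called there, and the Notum call was lost without A06. Trp53 was called lower in pure cancer than in pure WT cells (log2 fold change -2.56, edgeR adjusted p = 0.0323). That call was lost with a minimum count of 50 and without A03 or A05. Reads at the 3′ end of Apc and Trp53 do not test the engineered alleles. Of 10 leukocyte markers 3 had an entry and 1, Cd68, was tested, and the list summed to 0 to 4.53 CPM in WT and 0 to 71.8 CPM in cancer libraries. Cd68 was higher in pure cancer than in pure WT cells (log2 fold change 5.52, edgeR adjusted p = 0.0154), a direction that turned without A07 (log2 fold change -3.04, adjusted p = 0.896). Among the 6 fibroblast markers 1 had an entry, with a single read in A04, and no endothelial marker had one. A bulk library cannot tell fewer cells of a type from less RNA per cell.

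Promoters of 2 chemokines and 2 inhibitors are shown here because they hold the 10-base NF-kB consensus. RefSeq promoters (GRCm38.p6, from 250 bases before to 50 bases after the start) were found for 8 of the 10 genes, in 10 windows. At least 1 match on either strand lay in windows of 5 of these 8 genes (Cxcl1, Cxcl10, Ccl20, Nfkbia and Tnfaip3). Of all 32851 promoter windows 4.51% held a match, a share of windows rather than of genes. The set was chosen as chemokines and NF-kB feedback genes, so these shares are only a description. The windows below are Cxcl1 at chr5:90890995-90891294 on the + strand, Cxcl10 at chr5:92348840-92349139 on the - strand, Nfkbia at chr12:55492598-55492897 on the - strand and Tnfaip3 at chr10:19015361-19015660 on the - strand, each 5′ to 3′ along its gene with the consensus in capitals.
Cxcl1: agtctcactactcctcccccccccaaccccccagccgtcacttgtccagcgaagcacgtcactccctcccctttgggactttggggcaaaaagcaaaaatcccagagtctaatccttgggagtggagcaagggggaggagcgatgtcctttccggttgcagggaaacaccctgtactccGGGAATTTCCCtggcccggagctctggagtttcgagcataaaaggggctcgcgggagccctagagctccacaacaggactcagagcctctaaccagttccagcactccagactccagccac
Cxcl10: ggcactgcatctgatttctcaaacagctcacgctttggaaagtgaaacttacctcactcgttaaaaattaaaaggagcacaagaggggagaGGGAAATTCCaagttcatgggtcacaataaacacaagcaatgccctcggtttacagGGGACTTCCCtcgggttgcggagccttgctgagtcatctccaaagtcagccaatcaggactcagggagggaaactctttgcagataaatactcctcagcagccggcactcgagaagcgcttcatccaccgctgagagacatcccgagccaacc
Nfkbia: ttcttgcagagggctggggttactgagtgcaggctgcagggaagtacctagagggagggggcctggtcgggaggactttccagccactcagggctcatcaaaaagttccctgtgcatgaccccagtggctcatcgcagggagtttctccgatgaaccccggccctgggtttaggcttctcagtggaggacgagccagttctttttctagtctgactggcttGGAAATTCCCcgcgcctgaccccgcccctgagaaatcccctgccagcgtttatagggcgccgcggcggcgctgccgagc
Tnfaip3: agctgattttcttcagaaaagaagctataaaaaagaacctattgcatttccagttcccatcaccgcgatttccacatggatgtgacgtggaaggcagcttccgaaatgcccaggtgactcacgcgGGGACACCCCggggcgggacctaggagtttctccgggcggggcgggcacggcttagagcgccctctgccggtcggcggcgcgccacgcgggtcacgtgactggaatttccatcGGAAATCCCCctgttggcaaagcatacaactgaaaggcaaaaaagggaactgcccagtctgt

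In Cxcl1 the match read on both strands and ran from position -71 to -61 relative to the start. Cxcl10 held 1 match at -159 to -150 and another at -103 to -94, Nfkbia held 1 at -29 to -20 on the opposite strand, and Tnfaip3 held 1 at -125 to -116 and 1 on the opposite strand at -12 to -3. The Cxcl10 window also held the AP-1 letters TGANTCA at -74 to -68, which occur in 7.81% of all windows on either strand, and the core of the interferon-stimulated response element at -213 to -204, which occur in 3.44%. Tnfaip3 held the AP-1 letters at -136 to -130. These matches describe the sequence and were not tested as binding sites.

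Cxcl1 and Cxcl5 encode ligands of the neutrophil receptor Cxcr2. On GRCm38, Cxcl1 lies at chr5:90891241-90893115 and Cxcl5 at chr5:90759360-90761624. Neither gene had a read in any of the 4 WT libraries. For Cxcl1 the cancer libraries held 3 reads in A03, 2 in A07, 54 in A04 and 2 in A08, or 15.7, 5.99, 10.6 and 10.4 CPM. All cancer libraries therefore had Cxcl1 reads and no WT library had, a pattern shared by 44 of 13420 genes (0.328%). Pooled Cxcl1 was set against the level that 3 reads over both WT libraries of the same culture would give. It was at least 9.12-fold higher in pure cancer cells and at least 1.82-fold higher in mixed cancer cells. Such bounds, here and below, cover counting error only in the group without reads. The error of the reads in the higher group, 5 in pure cancer cells here, is left out, so true differences may be smaller. The bound in pure cells was 5.65-fold without A01 and 3.47-fold without A05, and without A03 or A07 no more than 3 reads remain and no fold is given. In mixed cells no fold can be given without A04, which leaves 2 reads, or without A06, since the floor of A02, at 39.3 CPM, lies above every Cxcl1 level in cancer cells.

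Cxcl5 reads came from 1 library of each cancer group, with 12 in A07 (35.9 CPM) and 38 in A04 (7.44 CPM) and none in A03 or A08. Its pooled level was at least 21.9-fold above the WT floor in pure cultures (13.6-fold without A01, 34.4-fold without A03 and 8.33-fold without A05) and at least 1.24-fold above it in mixed cultures. No fold can be given for pure cells without A07, or for mixed cells without A04 or A06. Cxcl10, which interferons induce, encodes a ligand of Cxcr3, a chemokine receptor on T cells. The gene lies at chr5:92346638-92348889 on the - strand and had 73 reads in A04 (14.3 CPM) and 3 in A07 (8.98 CPM). It too was without reads in A03, A08 and the 4 WT libraries. Its pooled level was at least 2.38-fold above the WT floor in mixed cultures, a bound that is lost without A04 or A06, and no fold is given for pure cultures, where it had 3 reads. Its exons overlap Art3 on the other strand, which had no entry under that symbol in the read counts. Reads in at least 1 pure and 1 mixed cancer library with none in WT libraries were found for 267 of 13420 genes (1.99%).

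**Figure D1:**
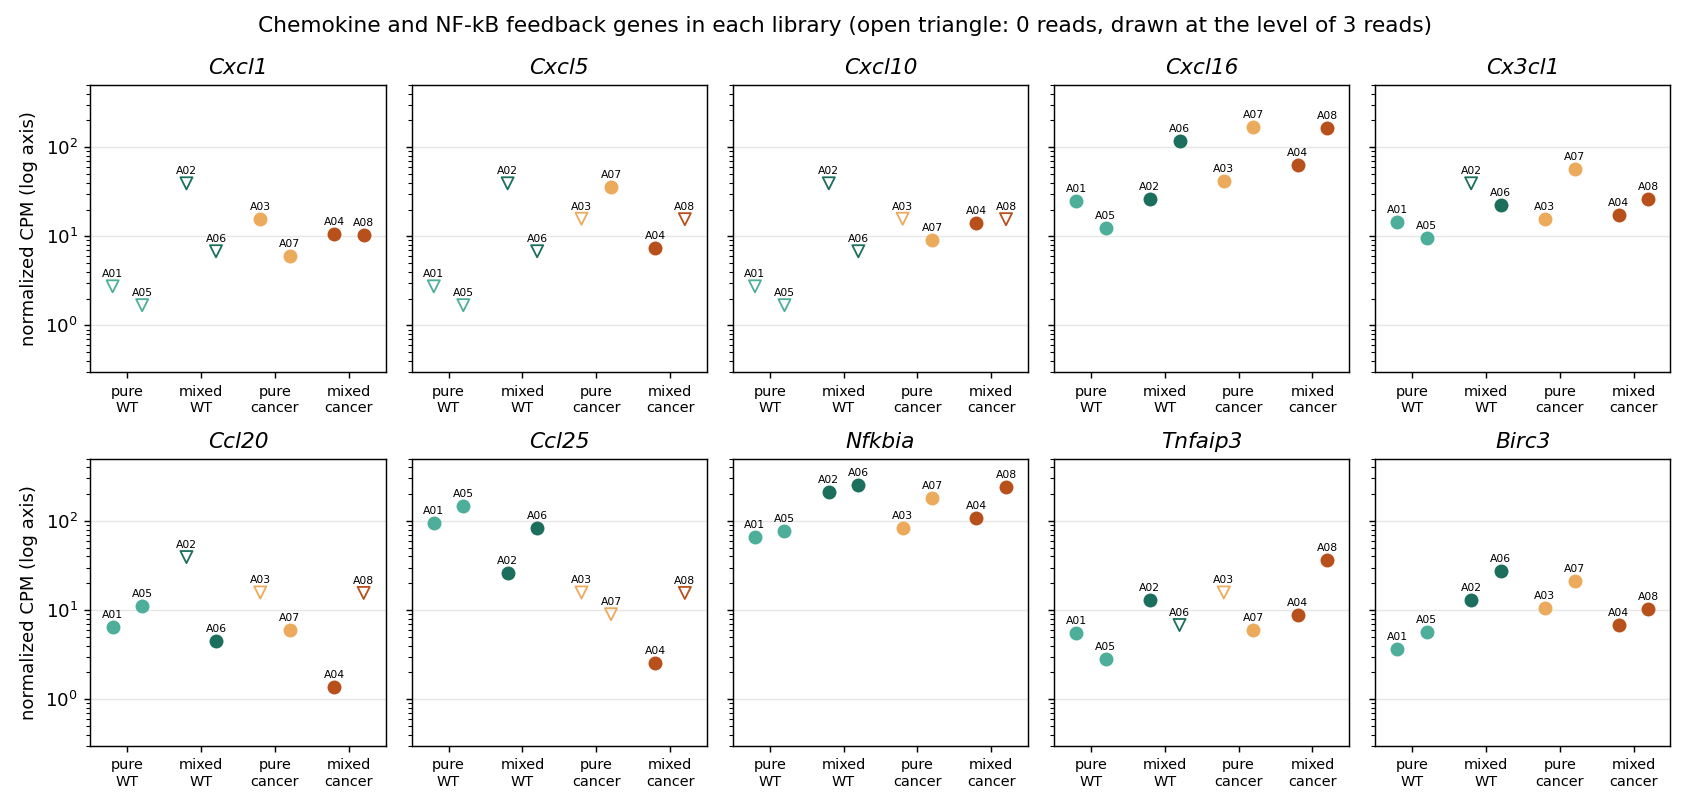
Normalized CPM on a log axis for the 10 genes in each library, with filled points for libraries with reads and open triangles at the level of 3 reads for libraries without. Levels are to be compared within a gene; Cxcl1, Cxcl5 and Cxcl10 have only open triangles in WT cells, whereas Ccl25 has a single filled point in cancer cells, at 2.54 CPM in A04.

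These 3 genes did not pass the filter on low counts. In an edgeR fit without the filter, cancer was higher than WT over pure and mixed cells for Cxcl1 (adjusted p = 0.00960), Cxcl5 (adjusted p = 0.00592) and Cxcl10 (adjusted p = 0.0326), against 3.21% of 13416 genes called higher. DESeq2 called neither Cxcl1 (adjusted p = 0.0547) nor Cxcl5 (adjusted p = 0.154) and gave no adjusted p for Cxcl10. The edgeR calls were lost for all 3 genes without A01, A04, A05 or A06, and for Cxcl5 and Cxcl10 also without A07. The adjusted p over these fits reached 0.175 for Cxcl1 without A05, and was 1 without A04 for both Cxcl5 and Cxcl10. The leukocyte list summed to 71.8 CPM in A07, 11.3 in A04, 25.9 in A08 and 0 in A03, and its part in these levels was not tested.

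Cxcl16 and Cx3cl1 encode the chemokines that are made as membrane-anchored proteins and released by sheddases. Cxcl16 lies at chr11:70453983-70459984 on the - strand. Its level was 24.7 and 12.4 CPM in the pure WT libraries A01 and A05, 26.2 and 118 in the mixed WT libraries A02 and A06, 42.0 and 168 in the pure cancer libraries A03 and A07, and 63.0 and 166 in the mixed cancer libraries A04 and A08. Both pure WT libraries were lowest, and the libraries within each of the other groups lay far apart, with A06 among the cancer libraries. Cxcl16 rose in pure cancer over pure WT cells (log2 fold change 2.56, SE 0.759, edgeR adjusted p = 0.0307), at 105 ± 88.8 against 18.5 ± 8.73 CPM (SD, n = 2 each). The call was lost without A05 (adjusted p = 0.227), without A07 (log2 fold change 1.10, adjusted p = 0.597) and with a minimum count of 50 (adjusted p = 0.0711). Its exons overlap Zmynd15 on the other strand, which had 1 read in all, in A07.

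Cx3cl1, the ligand of the mononuclear phagocyte receptor Cx3cr1, lies at chr8:94772009-94782427. It measured 14.6 and 9.56 CPM in pure WT, 0 reads in A02 and 22.7 CPM in A06, 15.7 and 56.9 CPM in pure cancer, and 17.4 and 25.9 CPM in mixed cancer libraries. The 4 cancer libraries lay above both pure WT libraries, with A06 inside their range. No comparison called Cx3cl1, and its difference between pure cancer and pure WT cells was 1.67 on the log2 scale (SE 0.899, edgeR adjusted p = 0.308). Of the sheddase genes, 3 of 4 were tested and none was called in any of the 6 comparisons, beside 0% to 14.2% of all tested genes. Adam10, a main sheddase of both, differed by -0.25 between cancer and WT cells (SE 0.765, edgeR adjusted p = 0.888).

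Ccl25 and Ccl20 encode the CC chemokines with a known role in the gut. Ccl25, which guides lymphocytes carrying Ccr9 to the small intestine, lies at chr8:4325210-4360020 and had the largest fitted difference between cell types of the 4 tested genes. Pure WT libraries A01 and A05 held 103 and 259 reads of Ccl25 (94.3 and 146 CPM), and mixed WT libraries A02 and A06 held 2 and 37 (26.2 and 83.8 CPM). In cancer cells it had 13 reads in A04 (2.54 CPM) and none in A03, A07 or A08. All cancer libraries were below all WT libraries, as for 8.11% of tested genes, although the floors in A03, A07 and A08 were 15.7, 8.98 and 15.6 CPM.

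Pure cancer cells expressed Ccl25 at least 22.0-fold lower than pure WT cells, computed against 3 reads over both pure cancer libraries (14.0-fold without A03 and 8.01-fold without A07). In edgeR this difference had an adjusted p of 0.000379, and it was called in every alternative fit that tested the gene. Mixed cancer cells were lower than mixed WT cells by a log2 fold change of -4.72 (SE 0.928, edgeR adjusted p = 0.00164). That call was lost without A04 (adjusted p = 0.0750), without A06 (adjusted p = 0.231) and in a fit of the 4 mixed libraries alone, where the filter left Ccl25 out. Over pure and mixed cells together, Ccl25 was called at an adjusted p of 5.32e-06 in edgeR.

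Several lists of epithelial cell type markers moved with Ccl25. The 5 enterocyte markers, all in the table, summed to 558 to 1285 CPM in WT libraries and 0 to 10.5 CPM in cancer libraries. All 4 tested members were called lower in pure cancer cells, beside 9.95% of all tested genes called in either direction. Goblet cell markers summed to 2228 to 3607 CPM in WT and 455 to 1113 CPM in cancer libraries, and Paneth cell markers to 406 to 2121 and 493 to 861 CPM. These sums hide members that went opposite ways. In pure cancer against pure WT cells the goblet cell genes Tff3 (log2 fold change -7.91) and Agr2 (-6.94) and the Paneth cell genes Lyz1 (-6.89) and Ang4 (-7.90) were lower, at edgeR adjusted p of 9.30e-08, 3.67e-05, 2.20e-06 and 3.81e-06. Mmp7 of the Paneth list was higher (log2 fold change 2.68, edgeR adjusted p = 0.000595), and Spink4 of the goblet list was not called (log2 fold change 0.59, adjusted p = 0.483). M cell marker sums overlapped between the cell types, at 6.80 to 94.4 CPM in WT and 42.0 to 88.2 CPM in cancer libraries, with Tnfaip2 higher (log2 fold change 4.89, edgeR adjusted p = 0.00138) and Ccl9 lower (adjusted p = 0.00308) in pure cancer cells. The part of these markers in the Ccl25 difference was not tested. Ccl25 exons overlap Elavl1 on the other strand, and Elavl1 had 48, 111 and 41 reads in the A03, A07 and A08 libraries in which Ccl25 had none.

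Ccl20, the ligand of Ccr6 on lymphocytes and dendritic cells, lies at chr1:83116766-83119167. It was read 7 and 20 times in pure WT (6.41 and 11.2 CPM), 0 and 2 times in mixed WT, 0 and 2 times in pure cancer and 7 and 0 times in mixed cancer libraries. A05 had the highest level, and A02, A03 and A08 had no reads. Without the filter, edgeR gave a difference of -1.40 on the log2 scale between cancer and WT cells (SE 1.25, adjusted p = 0.714), and its direction was not resolved at this depth.

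Nfkbia encodes IkBα, the inhibitor that retains NF-kB in the cytoplasm. The gene lies at chr12:55489410-55492647 on the - strand and was read in every library. Levels were 65.9 and 76.4 CPM in pure WT (A01 and A05), 210 and 251 in mixed WT (A02 and A06), 84.0 and 180 in pure cancer (A03 and A07), and 109 and 239 in mixed cancer libraries (A04 and A08). Both mixed WT libraries lay above both pure WT libraries, a separation that 15% of tested genes had in this direction, and the cancer libraries ranged from 84.0 to 239 CPM. Mixed WT cells had 231 ± 29.5 and pure WT cells 71.2 ± 7.46 CPM (SD, n = 2 each), a log2 fold change of 1.71 (SE 0.550) with an unadjusted p of 0.00488 and an adjusted p of 0.207 in edgeR.

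Tnfaip3 encodes A20, an enzyme that edits ubiquitin chains on signalling adaptors, and lies at chr10:19000910-19015657 on the - strand. Reads of Tnfaip3 numbered 6 in A01, 5 in A05, 1 in A02, 0 in A06, 0 in A03, 2 in A07, 45 in A04 and 7 in A08. The highest level was 36.3 CPM in A08, against 8.81 CPM in A04 of the same group and a range of 0 to 13.1 CPM elsewhere. Birc3, which encodes the ubiquitin ligase cIAP2, lies at chr9:7848699-7873186 on the - strand. It was read in all 8 libraries, with 3.66 and 5.62 CPM in pure WT, 13.1 and 27.2 in mixed WT, 10.5 and 21.0 in pure cancer, and 6.85 and 10.4 in mixed cancer libraries. Of the windows of 50 bases in the last 500 bases of Birc3 transcripts, 2.77% were shared with Gm43392, while the other 9 genes shared none with another gene. The A01, A05 and A04 libraries were lowest for Birc3, and the value of A02 is a single read. Neither gene passed the filter, and without it neither was called by edgeR in any comparison. For mixed against pure WT cells the adjusted p was 0.957 for Tnfaip3 and 0.784 for Birc3.

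To ask whether contact with cancer cells altered these genes in WT cells, mixed and pure WT cells were compared. None of the 4 tested genes was called by edgeR, against 0.741% of all tested genes, and DESeq2 called none either. Cxcl16 (log2 fold change 2.20, SE 0.770, unadjusted p = 0.00894, edgeR adjusted p = 0.265) and Nfkbia passed an unadjusted p of 0.05, as did 9.67% of tested genes. The Cxcl16 value rests on A06, since without it the log2 fold change was 0.44 (adjusted p = 0.891), and without A02 it was called (adjusted p = 0.0490). With molecule barcodes in place of reads, Cxcl16 was also called (log2 fold change 1.89, adjusted p = 0.0128). Ccl25 changed by -0.92 (SE 0.698, edgeR adjusted p = 0.746) and Cx3cl1 by 0.48 (SE 1.00, adjusted p = 0.935). The median over the 4 genes was 1.10, beside -0.10 over all tested genes.

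**Figure D2:**
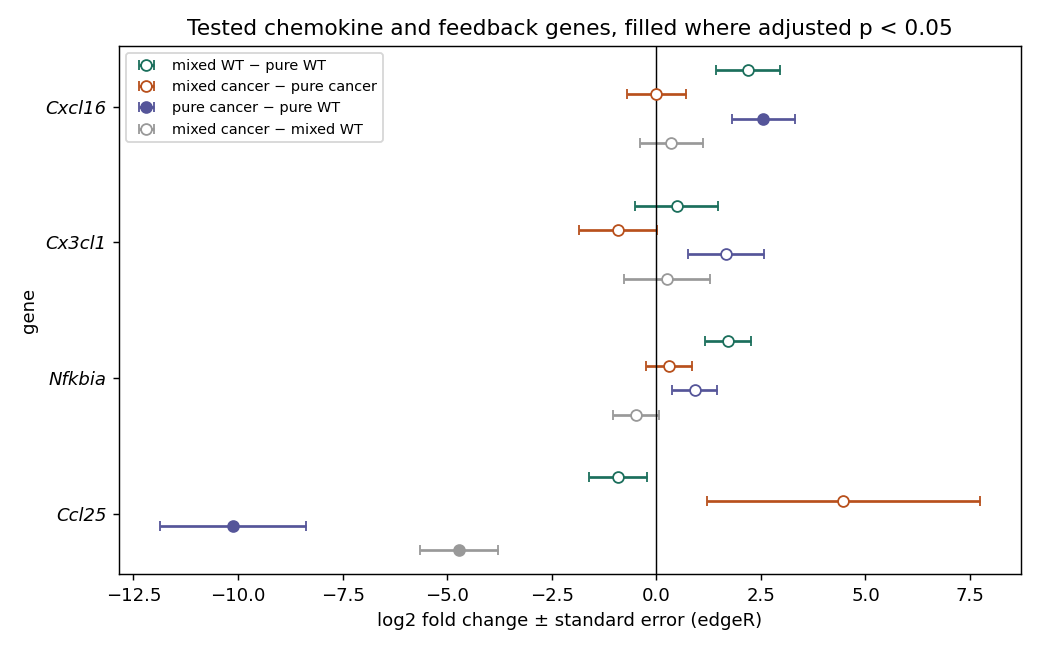
Log2 fold change, with an SE derived from the F statistic of the edgeR test, for the 4 tested genes in 4 comparisons, filled where the adjusted p passed 0.05. Cxcl16 is filled for pure cancer against pure WT cells, and Ccl25 for pure and for mixed cells; values of Ccl25 that involve pure cancer cells, which had 0 reads, depend on the prior count of the fit.

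In cancer cells, the same question gave no call for the 4 genes, and edgeR and DESeq2 each called 0% of the genes they tested. At an unadjusted p under 0.05, edgeR found 69 of 5264 genes and DESeq2 81 of 13416, and edgeR found none of these 4. Nfkbia differed by 0.31 (SE 0.550) and Cx3cl1 by -0.92 (SE 0.925), both at an edgeR adjusted p of 1. Cxcl16 had a log2 fold change of -0.0045 (SE 0.707), an estimate whose sign changed between fits. Whether mixing acted differently in the 2 cell types was tested as an interaction, which edgeR called for 0.076% of genes and for none of these 4. Cxcl16 had the lowest unadjusted p of the 4 (edgeR quasi-likelihood test, log2 difference 2.20, SE 1.05, unadjusted p = 0.0475, adjusted p = 0.677), and DESeq2 called none of them.

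Between cell types, 2 of the 4 tested genes were called in pure cultures, where edgeR called 9.95% of all genes, namely Cxcl16 upward and Ccl25 downward. In mixed cultures 1 of 4 was called, Ccl25, beside 6.42% of all genes. Across pure and mixed cells 1 of 4 was called, again Ccl25, beside 14.2% of all genes. Cxcl16 then had a log2 fold change of 1.46 (SE 0.529, edgeR adjusted p = 0.0703), which was called with molecule barcodes (adjusted p = 0.00155) and estimated transcripts (adjusted p = 0.0154), and without A01, A03, A04 or A06 in turn. Nfkbia differed little in that comparison (log2 fold change 0.21, SE 0.385, edgeR adjusted p = 0.794), with 153 ± 70.0 CPM in cancer and 151 ± 93.7 CPM in WT libraries (SD, n = 4 each). The comparisons of mixed with pure WT and of pure cancer with pure WT cells share the libraries A01 and A05, in which Cxcl16 and Nfkbia were lowest.

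Genes of the same pathway were examined by role. The 12 other chemokines of the table included 1 tested gene, Ccl9, which was at least 15.0-fold lower in pure cancer than in pure WT cells (247 against 0 reads, edgeR adjusted p = 0.00308), with a bound of 9.58-fold without A03 and 5.46-fold without A07. It was also lower in mixed cancer than in mixed WT cells (log2 fold change -5.15, SE 1.49, edgeR adjusted p = 0.0369), a call lost with molecule barcodes, with estimated transcripts and without A02, A04 or A05 (adjusted p up to 0.450). None of the 6 chemokine receptors in the table passed the filter. The Cxcl1 and Cxcl5 receptor Cxcr2 had 5 reads in A05, 14 in A04, and 2 each in A03 and A08. Among 22 NF-kB subunits, kinases and adaptors, 10 were tested and none was called in any comparison. Over all tested genes the share called ran from 0% to 14.2% between comparisons. Nfkb2, the precursor subunit of the noncanonical pathway, was the member with the highest mean level (cancer against WT 1.33 on the log2 scale, SE 0.497, edgeR adjusted p = 0.0797). Of 17 other feedback genes 5 were tested and none was called, beside the same 0% to 14.2% of all tested genes. Tnip1, a partner of A20, differed by 0.47 between cancer and WT cells (SE 0.555, edgeR adjusted p = 0.678).

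Of 27 other NF-kB target genes of epithelium 11 were tested. In pure cancer against pure WT cells 4 rose and 1 fell, beside 9.95% of all tested genes called in either direction. Lcn2, a siderophore-binding antimicrobial protein, had 0 reads in all WT libraries and 21.0, 56.9, 16.2 and 77.8 CPM in A03, A07, A04 and A08. It was at least 42.0-fold higher in pure cancer than in pure WT cells (edgeR adjusted p = 0.00168), and the bound was 15.97-fold without A05, 20.1-fold without A07 and 26.0-fold without A01. Ier3, an early response gene, was at 31.1 and 3.93 CPM in pure WT, 52.4 and 193 in mixed WT, 273 and 428 in pure cancer, and 453 and 316 in mixed cancer libraries. All cancer libraries were above all WT libraries for Ier3, as for 8.24% of tested genes, and pure cancer exceeded pure WT cells by a log2 fold change of 4.40 (SE 0.720, edgeR adjusted p = 0.000191). The alarmin gene Il33 (log2 fold change 5.93, adjusted p = 0.00688) and the TNF-family ligand gene Tnfsf9 (3.79, adjusted p = 0.0321) rose as well. The Il33 call was lost without A01, A03 or A05 (adjusted p up to 0.191), and the Tnfsf9 call was lost with DESeq2 and without A01, A04, A05 or A07 (adjusted p up to 0.800). Pigr, the transporter of secretory IgA, was at least 13.6-fold lower in pure cancer cells, with 223 reads against 0 (edgeR adjusted p = 0.00305), and at least 8.65-fold without A03 and 4.93-fold without A07.

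Upon mixing, Ier3 was the single target called in WT cells (log2 fold change 3.05, SE 0.711, edgeR adjusted p = 0.0399), beside 0.741% of all tested genes. The call was lost without A05 (log2 fold change 2.15) or A06 (log2 fold change 1.57). Il1rn, the interleukin-1 receptor antagonist, measured 46.7 and 33.7 CPM in pure WT and 144 and 317 CPM in mixed WT libraries, with an adjusted p of 0.0508. It was lower in mixed cancer than in mixed WT cells (log2 fold change -3.50, SE 0.692, edgeR adjusted p = 0.00157), and the call, though not the direction, was lost without A04 (log2 fold change -3.23, adjusted p = 0.0700) or A06 (log2 fold change -2.70, adjusted p = 0.0955). Pigr was lower in that comparison too (log2 fold change -4.69, SE 1.07, edgeR adjusted p = 0.00684), and its adjusted p was 0.108 without A04. Between mixed cancer and mixed WT cells no target was called higher and 2 were called lower, beside 6.42% of all tested genes. Ier3, Lcn2, Il33 and Tnfsf9 had positive fold changes there without a call, at edgeR adjusted p of 0.232, 0.0589, 0.185 and 0.0729. Across pure and mixed cells 5 targets rose and 2 fell, beside 14.2% of all tested genes called. Bcl2l1, an inhibitor of apoptosis, was among those that rose (log2 fold change 1.38, SE 0.421, edgeR adjusted p = 0.0274). That call was lost without A01, A02, A04 or A07 (adjusted p up to 0.159). The median over the 11 targets was 0.95, beside 0.04 over all tested genes.

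**Figure D3:**
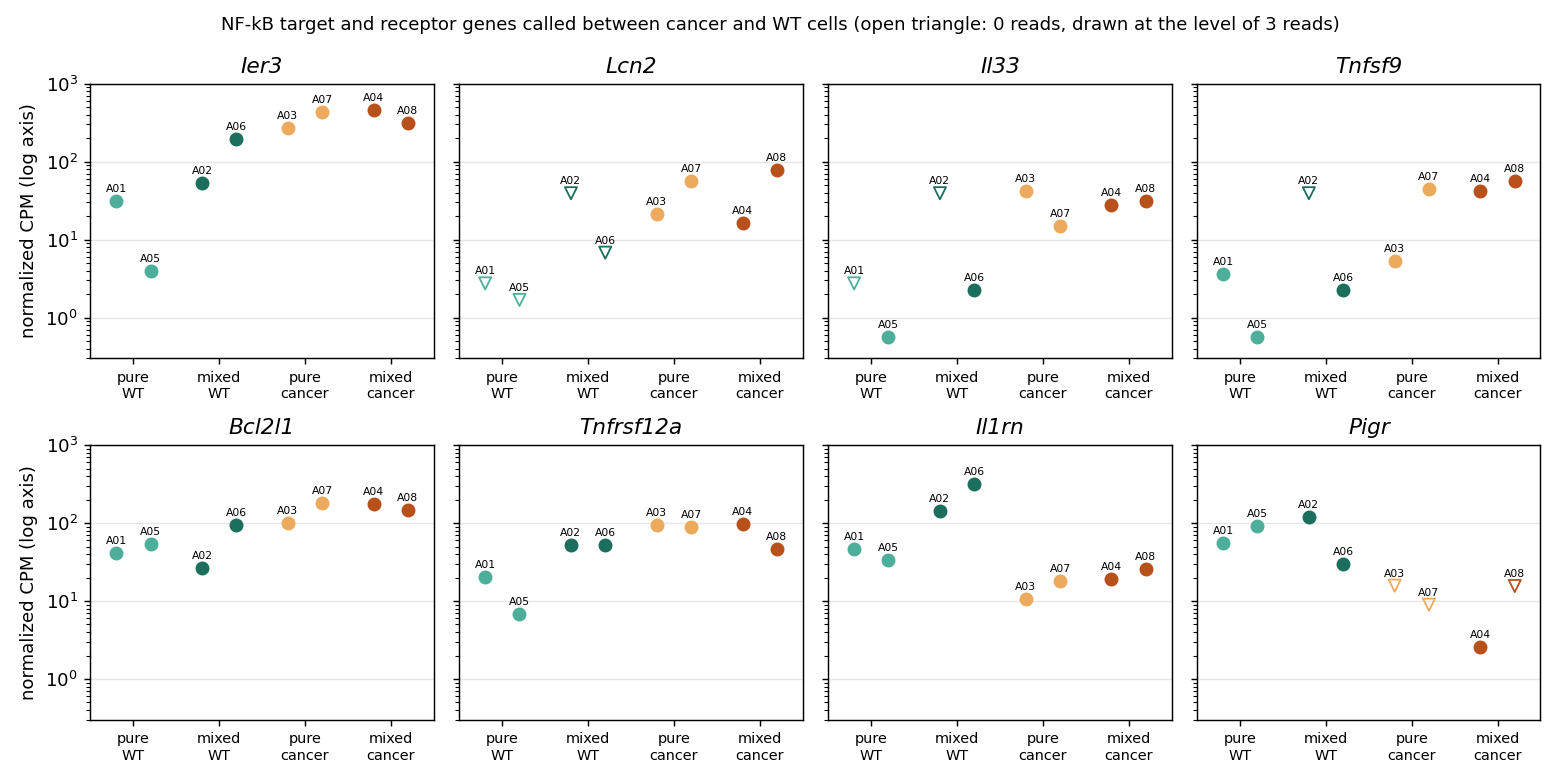
Normalized CPM on a log axis in each library for 7 NF-kB target genes and the receptor gene Tnfrsf12a that were called in at least 1 comparison, with open triangles at the level of 3 reads for libraries without reads. Lcn2 has reads in the 4 cancer libraries only, Pigr has 1 cancer library with reads, and Ier3 is at 273 CPM or above in every cancer library.

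Among 26 receptors and adaptors upstream of NF-kB 11 were tested. Only Tnfrsf12a, the receptor of the cytokine TWEAK, was called. It was higher in pure cancer than in pure WT cells (log2 fold change 2.81, SE 0.718, edgeR adjusted p = 0.0120), beside 9.95% of all tested genes called there. Without A05 its adjusted p was 0.269. Of 11 genes of the interferon pathway that controls Cxcl10, 8 were tested. Calls were made for 1 gene upon mixing in WT cells, 1 between pure cells, 1 between mixed cells and 2 across both cultures. Of all tested genes, 0.741%, 9.95%, 6.42% and 14.2% were called in these comparisons, in the same order. Irf7, a transcription factor of this pathway, was called in mixed over pure WT cells (log2 fold change 5.11, SE 1.20, edgeR adjusted p = 0.0399) with 61.2 CPM in A06, 0 reads in A02 and 1.83 and 0.562 CPM in pure WT libraries. The call was lost without A01 (adjusted p = 0.120) or A05 (adjusted p = 0.610), and without A06 the direction turned (log2 fold change -3.60, adjusted p = 0.875). It was also called in pure cancer over pure WT cells (log2 fold change 4.56, edgeR adjusted p = 0.0164), although not without A01, A05 or A07 (adjusted p up to 0.401). The interferon-gamma receptor genes Ifngr1 and Ifngr2 were lower in cancer than in WT cells across pure and mixed cultures, by log2 fold changes of -2.05 (SE 0.572, edgeR adjusted p = 0.0148) and -1.43 (SE 0.386, adjusted p = 0.0116). The Ifngr1 call was lost without A04, A05 or A06, and the Ifngr2 call without A05 or A06. Ifngr2 was also called lower in mixed cancer than in mixed WT cells (log2 fold change -2.13, SE 0.558, edgeR adjusted p = 0.0182), a call lost without A06 or A08.

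For genes that averaged 50 reads or more over the libraries, the tested genes with the most similar profile over the 8 libraries were sought. Cxcl16 was most like Prr13 (Pearson r 0.98) and the AP-1 gene Junb (r 0.97). Ccl25 was most like Cyp2j6 and Gm1123 (r 0.99 for both), and Nfkbia was most like Cwh43 (r 0.94) and Mboat1 (r 0.92). The libraries fall into 4 groups of different depth, and r is given as a description.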

How the data were processed

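RNA from sorted cells was sequenced by CEL-Seq as 8 libraries. According to the methods and labels, the authors used BWA with RefSeq transcripts of mm10 as the target, kept only uniquely placed reads, and counted them per gene with featureCounts. The strand setting is not given in the sources used here. The authors deposited read counts per gene, used for all main values, and counts of molecule barcodes, used as an alternative. The authors also deposited estimated counts of transcripts, which rise with the barcode counts and were rounded to whole numbers and used as another alternative. Barcode counts reach 256 at most. A deposited table of their DESeq2 1.22.2 comparison of mixed with pure WT cells (fold changes and p-values) was not used. The 2 entries without a chromosome, with 1 read, were left out.

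Read counts were tested with edgeR 4.0.16 (R 4.3.3) by the quasi-likelihood test with TMM factors, on the 5264 genes that passed filterByExpr at a minimum count of 10, in 1 fit of 8 libraries with 4 groups, at a Benjamini-Hochberg adjusted p of 0.05 over all tested genes. Normalized CPM are reads per 1000000 of the TMM-scaled library, with no allowance for transcript length, so that levels are compared within a gene. Floors are worth 3 reads and cover counting error only. Lower bounds of folds take the reads of the higher group as counted, without their error. Alternatives were molecule barcodes, estimated transcripts, other scaling factors, no filter, a minimum count of 50, DESeq2 1.42.0, fits of the libraries compared, and each library left out. Leaving out libraries in the fit without filter, and for the lower bounds of folds, was chosen after seeing the data. The 10 genes and the pathway lists were chosen with earlier results of these data known. Named beside the 10 were genes of these lists called in a comparison, members of uncalled lists with the highest mean CPM, and the 2 most similar genes (Pearson r of log2 CPM, prior count 2). Gene positions are from GENCODE vM21 (GRCm38). The fit was tested on simulated data.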

Additional observations from a re-analysis of the deposited data

How the results depend on the processing

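Every fold change of Ccl25 between cancer and WT cells stayed negative in all alternatives that tested it, and Cxcl16 stayed higher in pure cancer than in pure WT cells. No alternative called any of the 10 genes between mixed and pure cancer cells or in the interaction. The count of genes called between mixed and pure WT cells, 39, was 93 with molecule barcodes, 82 with estimated transcripts, 68 without a filter, 69 with DESeq2, 108 in the fit of the 4 WT libraries, and 2 to 118 with each library left out in turn (2 without A06, 8 without A05 and 118 without A07). The interaction count, 4, was 23, 10, 10 and 21 in the first 4 of these and 1 to 32 with libraries left out. A minimum count of 50 tested fewer genes and called 232 between pure cancer and pure WT cells (524 otherwise), 151 between the mixed cells (338 otherwise) and 314 over both (746 otherwise). With libraries left out these counts ran from 261 to 745, from 167 to 506 and from 547 to 963.

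Of the 10 genes, 1 was called between mixed and pure WT cells with molecule barcodes, namely Cxcl16, and 0 to 1 with libraries left out. Between pure cancer and pure WT cells 2 were called, with 0 at a minimum count of 50, which left Ccl25 untested, and 1 to 3 with libraries left out, the third being Cxcl5. Between the mixed cells 1 was called, with 0 at a minimum count of 50, 0 in the fit of the 4 mixed libraries and 0 to 1 with libraries left out. Over both, 1 was called, with 2 for molecule barcodes and estimated transcripts, 4 without a filter, 0 at a minimum count of 50, and 1 to 3 with libraries left out.

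Among the 4 tested genes of the 10, directions turned for fold changes that were not called. Between mixed and pure cancer cells Nfkbia turned to -0.12 with molecule barcodes and -0.11 with estimated transcripts, and Cxcl16 to 0.0043 without a filter, 0.020 at a minimum count of 50 and 0.054 with DESeq2. Leaving out libraries gave -0.72 to 1.40 for Cxcl16, -0.24 to 1.03 for Nfkbia and -1.50 to 0.42 for Cx3cl1 in that comparison. It gave -6.95 to 0.87 for Cx3cl1 between mixed and pure WT cells, -0.18 to 7.66 for Cx3cl1 and -0.37 to 2.09 for Cxcl16 between the mixed cells, -0.18 to 0.44 for Nfkbia over both, and -6.02 to 1.96 for Cx3cl1 in the interaction. The cause was not tested. Where both groups held no reads no value was obtained. No paired analysis was made, because the labels give library codes and no replicate numbers shared between groups. Mixed WT and mixed cancer cells were both sorted from mixed cultures, and which libraries shared a culture is not given. The tests treat these libraries as independent. The depth of A02 limits every value for mixed WT cells.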
